A study of Mus musculus with 6 samples.

Results

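The voltage-gated and potassium channel genes of the mouse temporomandibular joint comprised 114 of the 22032 genes in the count table. Members were taken by symbol: every potassium channel gene and numbered accessory subunit (Kcn), the sodium channel alpha and beta genes (Scn), the calcium channel alpha1, alpha2delta and beta genes (Cacna1, Cacna2d, Cacnb) and the pacemaker genes Hcn, leaving out Kcnn4 and Cacna1s. The rule itself uses symbols only, but it was chosen with earlier results of these data known. The joint, which links the mandible to the temporal bone, was taken from littermates aged 10 weeks, and mRNA libraries were sequenced, 3 labelled Igf2bp2-KO and 3 labelled Igf2bp2-WT. Both groups were whole joint tissue of 1 age, and the labels give no treatment. The question is what the loss of IGF2BP2, which binds m6A-marked mRNA and stabilises it, changes in this tissue. The labels name neither the deleted part of the gene nor the sex of the mice, and they do not say whether each library came from a separate animal.

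Channels of this superfamily let ions cross the membrane when the voltage changes, when calcium or sodium binds inside the cell, or at rest. Sodium channels start the action potential, potassium channels end it and hold the resting potential, and calcium channels turn it into contraction or transmitter release. Each tissue uses its own set. Skeletal muscle fires through Scn4a, smooth muscle sets its tone through large-conductance and voltage-gated potassium channels, and neurons use several sodium, calcium and potassium channels placed at cell bodies, axons and terminals. The members were therefore grouped by textbook main site of expression into lists for muscle (9 genes), neuron (49, of which 43 were in the table), smooth muscle (7), glia (2) and epithelium (8, of which 7 were in the table). The remaining 46 members are called other. Many of these genes are also used elsewhere, so a list names a main site and does not place a count in a cell.

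Upstream sequences are shown for 7 genes on which the results turn: Scn4a of muscle and Kcna5 of smooth muscle, which were higher in KO, the neighbours Scn1a, Scn9a and Scn7a, of which the first pair was higher and Scn7a lower, and Kcna2 and Kcnmb4, the neuronal genes of strongest decrease. Each run is the 250 bases before the annotated start in RefSeq, build GRCm38.p6, read 5′ to 3′ on the strand of the gene. Capitals mark an E-box of the form CAGCTG, which myogenic factors of the bHLH class can bind, or a GC box, GGGCGG, on either strand (CCGCCC on the other).
Scn4a, chr11:106349391-106349640, minus strand: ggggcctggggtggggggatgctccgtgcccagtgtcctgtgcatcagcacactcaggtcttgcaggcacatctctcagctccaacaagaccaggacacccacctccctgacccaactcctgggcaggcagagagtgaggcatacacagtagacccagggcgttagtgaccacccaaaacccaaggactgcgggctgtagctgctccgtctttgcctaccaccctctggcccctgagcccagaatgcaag
Kcna5, chr6:126535556-126535805, minus strand: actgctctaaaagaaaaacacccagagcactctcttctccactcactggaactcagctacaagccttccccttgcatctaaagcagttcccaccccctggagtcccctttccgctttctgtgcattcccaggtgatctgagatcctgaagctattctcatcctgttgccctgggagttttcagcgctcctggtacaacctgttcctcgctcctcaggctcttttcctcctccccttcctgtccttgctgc
Scn1a, chr2:66440838-66441087, minus strand: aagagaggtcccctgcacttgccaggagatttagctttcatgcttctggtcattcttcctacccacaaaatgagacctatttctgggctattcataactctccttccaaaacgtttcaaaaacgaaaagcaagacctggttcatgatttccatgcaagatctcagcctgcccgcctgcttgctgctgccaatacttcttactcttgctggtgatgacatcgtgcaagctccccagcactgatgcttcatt
Scn9a, chr2:66634963-66635212, minus strand: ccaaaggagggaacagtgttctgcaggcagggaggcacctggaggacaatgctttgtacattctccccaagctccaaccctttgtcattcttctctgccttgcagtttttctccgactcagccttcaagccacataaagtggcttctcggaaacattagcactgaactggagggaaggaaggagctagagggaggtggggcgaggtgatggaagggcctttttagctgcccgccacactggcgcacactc
Scn7a, chr2:66784911-66785160, minus strand: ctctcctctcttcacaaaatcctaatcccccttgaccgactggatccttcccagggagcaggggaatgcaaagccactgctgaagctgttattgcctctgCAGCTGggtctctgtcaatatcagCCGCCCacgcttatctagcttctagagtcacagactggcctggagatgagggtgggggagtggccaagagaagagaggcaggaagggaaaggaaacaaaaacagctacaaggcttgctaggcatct
Kcna2, chr3:107101317-107101566, plus strand: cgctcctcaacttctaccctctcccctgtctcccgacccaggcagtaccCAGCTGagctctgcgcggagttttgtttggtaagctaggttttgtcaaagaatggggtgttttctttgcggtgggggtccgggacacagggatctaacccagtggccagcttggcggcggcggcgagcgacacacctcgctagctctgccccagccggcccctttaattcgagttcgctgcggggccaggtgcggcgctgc
Kcnmb4, chr10:116473524-116473773, minus strand: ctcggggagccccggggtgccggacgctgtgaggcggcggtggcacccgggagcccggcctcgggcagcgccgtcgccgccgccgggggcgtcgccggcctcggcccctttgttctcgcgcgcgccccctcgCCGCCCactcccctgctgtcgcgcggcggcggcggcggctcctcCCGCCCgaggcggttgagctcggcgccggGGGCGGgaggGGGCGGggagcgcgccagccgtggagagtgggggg
The Kcnmb4 run held 43 CpG dinucleotides, at least as many as 99.5% of all 32851 annotated starts, and 4 GC boxes. The Kcna2 run held 18 CpG and an E-box, and the Scn7a run 3 CpG, an E-box and a GC box. The runs of Scn4a, Kcna5, Scn1a and Scn9a held 4, 3, 4 and 5 CpG and neither motif, beside a median of 6 CpG over all starts. RefSeq gave a start for 82 of the 114 members, with 117 starts in all. The E-box was in 23.1% of the members' starts and in 13% of all starts, the GC box in 43.6% and 32.7%. The left arm of the RE1 element, TTCAGNACC, through which the repressor REST holds neuronal genes down in other cells, was in 1.71% and 1.01% on either strand. The E-box and the GC box do not overlap in their letters. A match describes these letters in this window, and the start used in the joint was not measured.

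The libraries held 28551236 to 35094127 counts. Mitochondrial genes took 85.3% to 86% of them in KO and 90.6% to 90.8% in WT, which left 4604575 to 4899680 and 2625472 to 3205190 counts on nuclear genes. Differences below are relative ones after TMM scaling (trimmed mean of M-values), and CPM is a count as a share of the library size on that scale. The libraries KO 1 and KO 3 varied from each other by about the counting noise of read pairs, taking 2 counts per pair. Their variance ratio was 0.94 in the median over genes and 1.18 in the mean. For WT 2 and WT 3 it was 0.96 and 1.08. Each of these pairs was summed and counted as 1 sample. That left n = 2 samples per group, and a p-value here reflects no more than how these samples vary, possibly for technical reasons. Settings without KO 2 or without WT 1 leave 1 sample in that group. Leaving out any other library keeps n = 2 and lowers the depth. A call lost without KO 2 or WT 1 can thus reflect the missing replicate and need not point at that library. The targeted gene Igf2bp2 was not at 0 in KO: KO 1 to 3 held 13, 14 and 10 of its counts, against 38, 20 and 24 for WT 1 to 3 (log2 fold change -1.8, SE 0.39, edgeR FDR 0.00589). Joint markers were present: Prg4, the lubricant of the joint surface, had 5406 counts over KO and 868 over WT, and Col1a1 of bone and tendon, the most abundant joint marker in counts, had 62161 and 18648. The cartilage genes Col2a1 (139 counts over KO and 113 over WT) and Acan (83 and 74) were low. After scaling their log2 fold changes were -0.27 and -0.43, and neither was called (edgeR FDR 0.603 and 0.426). Of the 7 markers of cartilage, joint lining and bone, 3 were higher and 1 lower, with a median log2 fold change of -0.27. The lower one was Runx2, with 173 counts over KO and 286 over WT (-1.39, edgeR FDR 0.000318). Sox9 was not called (-0.40, FDR 0.197).

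Of the 114 channel genes, 78 had enough counts to be tested, 16 were higher and 8 lower in KO (edgeR quasi-likelihood test, false discovery rate (FDR) under 0.05). That is 20.5% and 10.3% of those tested, where 9.15% of all 14632 tested genes were called higher and 8.48% lower, or 17.6% in either direction. By list, 22.2% of tested muscle, 28.6% of smooth muscle, 31.2% of neuron, 0% of glial and 0% of epithelial genes were higher. The shares lower were 0%, 0%, 9.38%, 50% and 16.7%, some of them on very few genes. The low-count filter admits genes that are high in 1 group only, so these shares describe the members and are no test of them. The median log2 fold change was 0.29 over the tested members and -0.01 over all tested genes. Among the members, the 3 KO libraries lay wholly above the 3 WT libraries for 26 genes and wholly below for 13, or 33.3% and 16.7%, against 19.3% and 19.2% of all tested genes. The 36 untested members had 2 to 45 counts summed over all libraries. Kcna4, a transient potassium channel of neurons and heart, was among them with 11, 5 and 4 counts in KO 1 to 3 and 0 in each WT library, 4.31-fold higher if the WT libraries together are set to 3 counts. A read pair seems to add 2 counts in these files, so such a fold is not a strict lower bound.

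**Figure D1:**
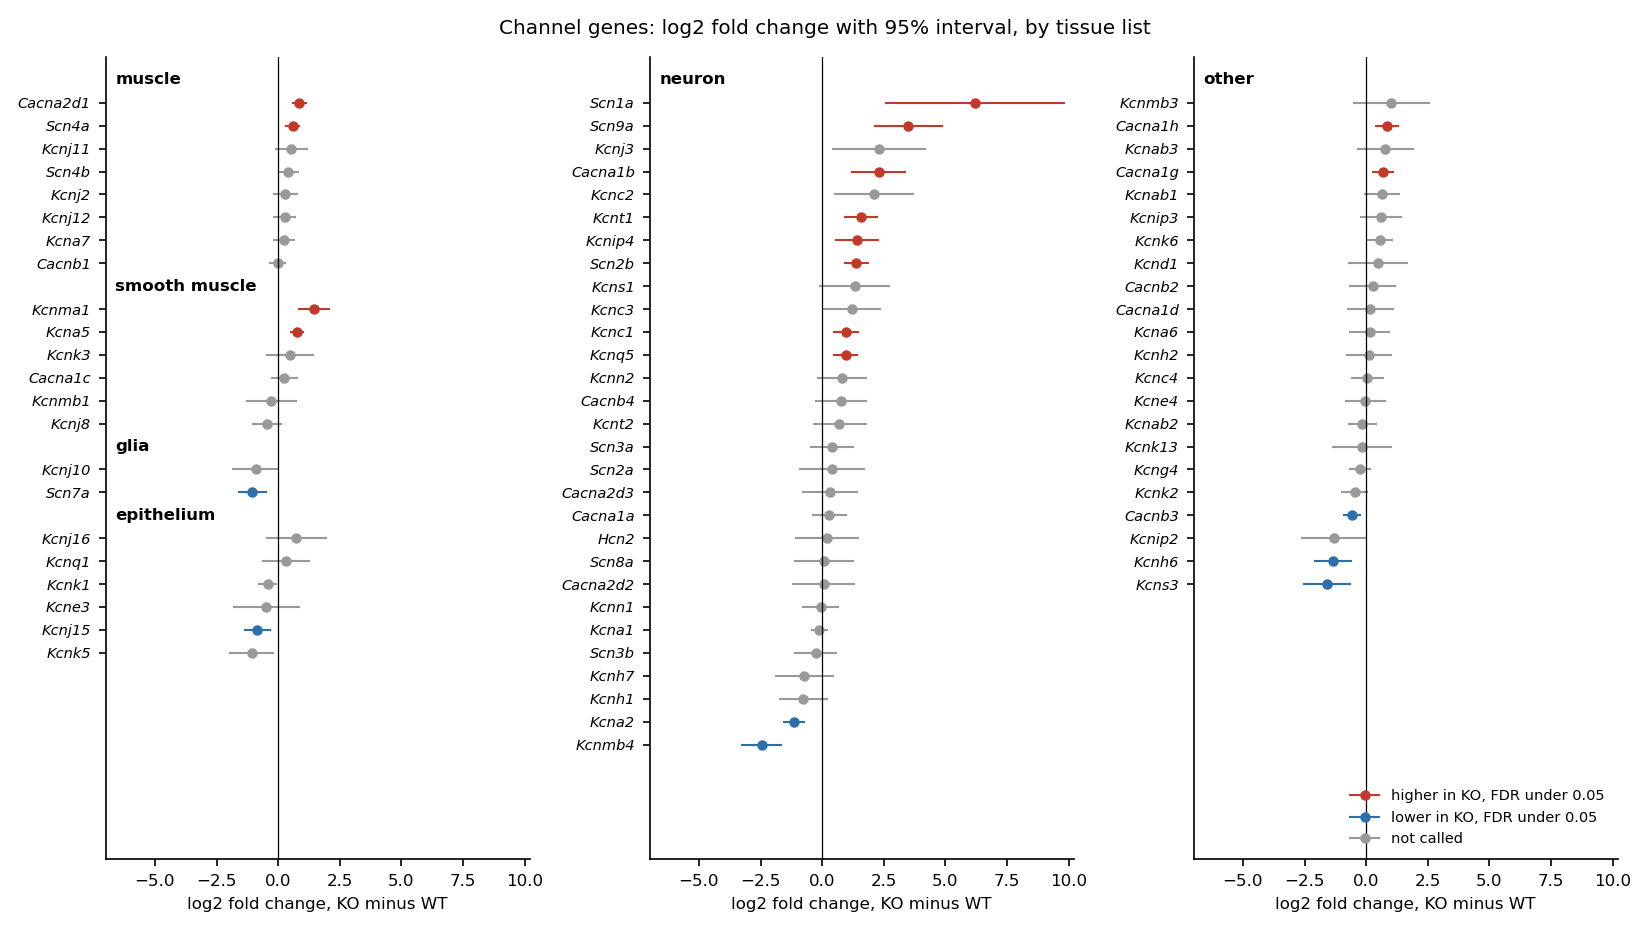
Log2 fold change (KO minus WT, x axis) with its 95% interval for 73 of the 78 tested channel genes, in columns by tissue list. The neuron column runs from Kcnmb4 at -2.45 to Scn9a at 3.49 and Scn1a, which had 0 counts in WT and so no firm fold, while the muscle genes lie between -0.02 and 0.85.

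The muscle list had 2 of 9 genes higher in KO, the skeletal muscle sodium channel Scn4a and Cacna2d1, the alpha2delta subunit that helps carry calcium channels to the surface of muscle fibres and neurons. Its median log2 fold change was 0.29. No member was called lower (edgeR; 0 lower at an unadjusted p under 0.05, DESeq2 0). Scn4a, which starts the action potential of the muscle fibre, had 12.9, 12.2 and 12.5 CPM in KO 1 to 3 and 7.73, 7.86 and 9.40 CPM in WT 1 to 3. All KO libraries lay above all WT libraries. The means were 12.4 ± 0.352 CPM for KO and 8.20 ± 0.668 CPM for WT (SD over the 2 samples of each group, as for all means below). Scn4a rose by 0.60 on the log2 scale (SE 0.12, edgeR FDR 0.00398). Over 13 other settings its FDR ranged from 7.74e-05 to 0.0573, the highest without KO 2. Cacna2d1 had 12.1, 12.5 and 12.1 CPM in KO 1 to 3 and 6.88, 7.90 and 5.83 CPM in WT 1 to 3. The KO libraries were close together and above every WT library. The log2 fold change was 0.85 (SE 0.12, edgeR FDR 0.000269), and the call was kept in all 13 other settings.

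The other 7 muscle genes did not pass. Cacnb1, the beta subunit of the skeletal muscle calcium channel, had 7.04 ± 0.528 CPM in KO and 7.18 ± 0.0502 CPM in WT, a difference of -0.02 with a 95% interval of -0.32 to 0.27. The sodium channel subunit Scn4b (0.41, FDR 0.139) and the inward rectifiers Kcnj11 (0.54, FDR 0.246), Kcnj2 (0.29, FDR 0.405) and Kcnj12 (0.26, FDR 0.411), which stabilise the resting potential, had positive log2 fold changes that missed the threshold. So did Kcna7, a voltage-gated potassium channel of muscle and heart (0.24, FDR 0.443). Only Cacnb1 of the 9 was on the negative side.

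In the same libraries fast muscle markers moved in the same direction as Scn4a and Cacna2d1. Of 10 markers 4 were higher and none lower (edgeR; 8 and 0 at an unadjusted p under 0.05, DESeq2 5 and 0), with a median log2 fold change of 0.48. Their summed level was 7120 to 8220 CPM in KO and 4700 to 6570 CPM in WT. The creatine kinase Ckm, the most abundant in CPM averaged over both groups, missed the threshold (0.46, edgeR FDR 0.137), and Tnnt3 of the thin filament rose by 0.61 (FDR 0.0206). None of 6 slow muscle markers was called (edgeR; 0 higher and 1 lower at an unadjusted p under 0.05, DESeq2 0), and their summed level of 13.9 to 16.4 CPM in KO and 15.6 to 19.2 CPM in WT was far below that of the fast ones, with Tnnt1 the most abundant (-0.13, FDR 0.613). The 9 muscle channels summed to 67.9 to 72.6 CPM in KO and 54.5 to 58.3 CPM in WT. The part of muscle content in the channel changes was not tested. In bulk tissue, more cells of a type and more RNA per cell cannot be told apart.

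The smooth muscle list had 2 of 7 genes higher in KO, both potassium channels: Kcna5, a delayed rectifier of arterial and cardiac muscle, and Kcnma1, the pore of the calcium-activated BK channel that opposes contraction. Its median log2 fold change was 0.49. None was called lower (edgeR; 0 lower at an unadjusted p under 0.05, DESeq2 0). Kcna5 had 18.9, 18.8 and 19.7 CPM in KO 1 to 3 and 10.6, 10.9 and 12.2 CPM in WT 1 to 3. Every KO library lay above every WT library. With 6.66 CPM per kilobase in KO and 3.87 in WT, it was among the most abundant channel genes per length. It rose by 0.78 on the log2 scale (SE 0.11, edgeR FDR 0.000305). Kcnma1 had 4.53, 3.38 and 3.86 CPM in KO 1 to 3 and 0.855, 1.41 and 2.14 CPM in WT 1 to 3. The WT libraries differed more among themselves than the KO libraries did, but the groups did not overlap. Kcnma1 rose by 1.46 (SE 0.28, edgeR FDR 0.0046). Both calls were kept in all 13 other settings.

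No beta subunit of the BK channel was called higher. Kcnmb3 had a log2 difference of 1.01 on 28 counts in KO and 9 in WT (95% interval -0.51 to 2.53, edgeR FDR 0.372). Kcnmb2 was too low to test. Kcnmb1, the smooth muscle beta subunit that raises calcium sensitivity, had 0.379 ± 0.098 CPM in KO and 0.474 ± 0.0561 CPM in WT, a log2 difference of -0.27 (95% interval -1.25 to 0.71, edgeR FDR 0.752). Kcnmb4, the beta subunit of neurons, fell, as given below. Cacna1c, the L-type calcium channel of smooth muscle and heart, had 2.33 ± 0.604 CPM in KO and 1.94 ± 0.113 CPM in WT, a difference of 0.25 (95% interval -0.25 to 0.75). Kcnj8, the pore of the vascular ATP-sensitive channel, was at -0.44 (FDR 0.284), and its partner subunit Abcc9 at 0.08 (FDR 0.802). Kcnk3, a K2P leak channel, did not pass (0.49, FDR 0.502). Of 7 smooth muscle markers 5 rose, with a median log2 fold change of 0.45, and their summed level was 173 to 185 CPM in KO and 133 to 140 CPM in WT. Acta2, the most abundant in WT, rose by 0.45 (edgeR FDR 0.0135). The part of these markers in the rise of Kcna5 and Kcnma1 was not tested.

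**Figure D2:**
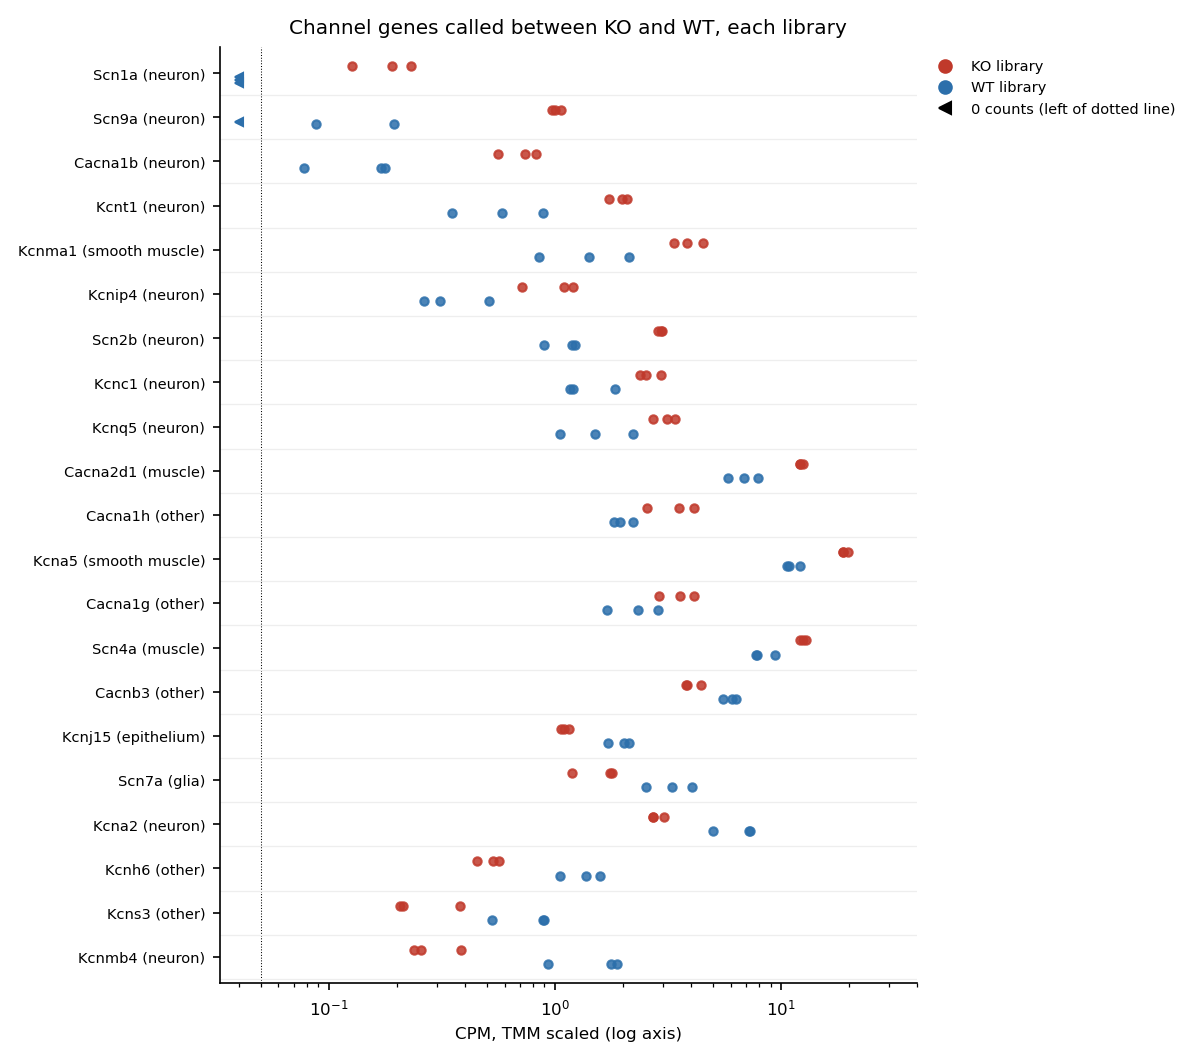
TMM-scaled CPM (log x axis) of 21 of the 24 called channel genes in each library, KO points above WT points in each row, with libraries at 0 counts drawn left of the dotted line. In every row the 3 KO libraries and the 3 WT libraries are apart, from Scn1a at the top to Kcnmb4 at the bottom.

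The neuron list had 32 of its 43 listed genes tested, of which 10 were higher and 3 lower in KO, with a median log2 fold change of 0.65 (the same with Scn1a, which had 0 counts in WT, at its floor). The increases covered sodium, calcium and potassium channels. Scn9a, the sodium channel of sensory and sympathetic neurons that amplifies small depolarisations, had 42, 41 and 39 counts in KO 1 to 3, against 0, 2 and 5 in WT 1 to 3. The WT libraries held few reads of it, with means of 1.01 ± 0.0431 CPM in KO and 0.0723 ± 0.102 CPM in WT. Its log2 fold change was 3.49 (SE 0.62, edgeR FDR 0.00178), and 2.80 without WT 1 or 4.60 without WT 3. Scn1a, a sodium channel of the axon initial segment, had 5, 8 and 9 counts in KO 1 to 3 and 0 in each WT library. With the WT libraries together set to 3 counts it was 4.74-fold higher (edgeR FDR 0.0214). It was too low to test in 9 other settings and had an FDR of 0.0212 to 0.0652 in the 4 that tested it, above the threshold without WT 1 (0.0594) and in DESeq2 (0.0652). Scn2b, a beta subunit of neuronal sodium channels, had 2.85, 2.98 and 2.94 CPM in KO 1 to 3 and 1.23, 1.19 and 0.893 CPM in WT 1 to 3. The groups were far apart relative to their spread, and Scn2b rose by 1.39 on the log2 scale (SE 0.22, edgeR FDR 0.000584).

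Kcnq5 and Kcnq3 belong to the KCNQ family, whose channels carry the M-current that restrains repetitive firing. Kcnq5 had 3.13, 2.71 and 3.40 CPM in KO 1 to 3 and 1.51, 2.21 and 1.05 CPM in WT 1 to 3. It rose by 0.95 (SE 0.21, edgeR FDR 0.00577), with an FDR of 0.000262 to 0.0563 over 13 other settings, the highest without WT 3. Kcnq3 was too low to test, with 6, 5 and 8 counts in KO 1 to 3, against 2, 0 and 0 in WT 1 to 3.

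Cacna1b, the N-type calcium channel that triggers transmitter release at autonomic and sensory terminals, had 22, 31 and 32 counts in KO 1 to 3, against 5, 4 and 2 in WT 1 to 3. Each KO library held more than any WT library also after scaling, and the gene was 4.91-fold higher (log2 fold change 2.30, SE 0.50, edgeR FDR 0.00558). Over 12 other settings its FDR ranged from 0.000379 to 0.0571, the highest without KO 2. The P/Q-type gene Cacna1a of central synapses had 1.08 ± 0.163 CPM in KO and 0.882 ± 0.108 CPM in WT and did not pass (0.28, FDR 0.598). Kcnt1, a sodium-activated potassium channel, had 2.09, 1.98 and 1.73 CPM in KO 1 to 3 and 0.890, 0.353 and 0.583 CPM in WT 1 to 3. It rose 2.97-fold (edgeR FDR 0.00285), a call kept in all 13 other settings.

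Kcnc1 and Kcnip4 of the neuron list were also higher. Kcnc1, a fast delayed rectifier of rapidly firing neurons, had 2.39, 2.95 and 2.52 CPM in KO 1 to 3 and 1.20, 1.85 and 1.17 CPM in WT 1 to 3 (log2 fold change 0.98, edgeR FDR 0.00806). The groups did not overlap, and the call was lost without KO 2 (FDR 0.107), over a range of 0.000456 to 0.107 in 13 other settings. Kcnip4, a calcium-binding subunit of transient potassium channels, named after its values were seen, had a log2 fold change of 1.41 (edgeR FDR 0.024) and was lost without KO 2 (0.158), without KO 3 (0.0748) and in DESeq2 (0.0971).

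Among the neuronal genes that fell were Kcnmb4 and Kcna2. Kcnmb4, which slows the BK channel and changes its drug sensitivity, had 0.255, 0.238 and 0.386 CPM in KO 1 to 3 and 1.88, 1.77 and 0.932 CPM in WT 1 to 3. WT 3 was the lowest of the WT libraries and still above every KO library. The gene was 5.48-fold lower (log2 fold change -2.45, SE 0.37, edgeR FDR 0.000381), the largest called decrease among the 78 tested members, and it was called in all 12 other settings that tested it. Kcna2, a potassium channel of the juxtaparanodes beside the nodes of myelinated axons, had 3.03, 2.71 and 2.73 CPM in KO 1 to 3 and 5.03, 7.28 and 7.19 CPM in WT 1 to 3. The log2 fold change was -1.14 (SE 0.19, edgeR FDR 0.000841), and the call was kept in all 13 other settings.

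Kcna1, which forms mixed channels with Kcna2 at the juxtaparanode, was the most abundant neuronal gene per length, with 1.47 CPM per kilobase in KO and 1.59 in WT. It had 5.88, 5.93 and 5.97 CPM in KO 1 to 3 and 6.09, 6.88 and 6.53 CPM in WT 1 to 3. The groups did not overlap, yet the difference was only -0.11 on the log2 scale (95% interval -0.42 to 0.19, edgeR FDR 0.649). The proteins that hold these channels in place gave mixed values. Cntnap2 had a difference of -0.30 (FDR 0.553), Kcnab2, the beta subunit of the complex, -0.15 (FDR 0.752), and Cntn2 2.09 on 40 counts in KO and 6 in WT (FDR 0.066). A difference between the changes of Kcna1 and Kcna2 was not tested.

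The other 19 tested neuronal genes were not called. Kcnj3, the G-protein-gated rectifier through which acetylcholine quiets cells, had 8, 12 and 11 counts in KO 1 to 3, against 0, 4 and 0 in WT 1 to 3 (log2 fold change 2.32, FDR 0.0858). Kcnc2, a fast delayed rectifier, had 40 counts in KO and 6 in WT (FDR 0.0677). The sodium channel genes Scn2a, Scn3a and Scn8a showed differences of 0.40, 0.40 and 0.07 (FDR 0.719, 0.548 and 0.953). Their 95% intervals reached from -0.90 to 1.70, from -0.45 to 1.26 and from -1.12 to 1.27. Changes of about 2-fold in either direction were thus not excluded in Scn8a.

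Scn1a, Scn9a and Scn7a lie next to each other among the protein-coding genes of mouse chromosome 2, in that order in RefSeq, and did not move together. Scn7a, a sodium-sensing channel of non-myelinating Schwann cells and other glia, had 1.76, 1.19 and 1.80 CPM in KO 1 to 3 and 2.53, 3.31 and 4.04 CPM in WT 1 to 3. It was lower in KO (log2 fold change -1.05, SE 0.25, edgeR FDR 0.0112), while its neighbours Scn1a and Scn9a were higher. Over 13 other settings the FDR of Scn7a ranged from 6.43e-05 to 0.116, the highest without KO 2. Scn3a and Scn2a of the same cluster did not pass. Kcnj10, the glial inward rectifier that buffers potassium, had 0.367 ± 0.115 CPM in KO and 0.717 ± 0.0502 CPM in WT and missed the threshold (-0.91, FDR 0.165).

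Nerve markers also differed between the groups in the same libraries. All 10 neuron markers were higher in KO, with a median log2 fold change of 2.51 and a summed level of 40.2 to 45.6 CPM in KO and 7.90 to 9.71 CPM in WT. Of 7 autonomic neuron markers 5 were tested and all 5 were higher. The whole list summed to 38.6 to 39.5 CPM in KO and 0 to 0.233 CPM in WT, with 5 markers at 0 in every WT library. Stmn2, the most abundant neuron marker in CPM, rose by 1.86 (edgeR FDR 4.66e-05), and Vip, the most abundant autonomic one, had 3707 counts over KO against 4 over WT. All 8 Schwann cell markers were lower, with a median of -1.53 and a summed level of 478 to 496 CPM in KO and 1400 to 1450 CPM in WT. Of 6 olfactory neuron markers 3 were lower, led by Gfy (-3.92, FDR 6.92e-07), and the other 3 were not called. These were Cnga2 (0.08), Adcy3 (0.01) and Gnal (0.61), and all KO libraries of Gnal lay above all WT libraries. The 6 summed to 3.38 to 3.63 CPM in KO and 9.24 to 10.1 CPM in WT. The channels of the neuron list summed to 41.3 to 44.5 CPM in KO and 33 to 36.9 CPM in WT. The part of nerve, ganglion or olfactory tissue content in the channel values was not tested.

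**Figure D3:**
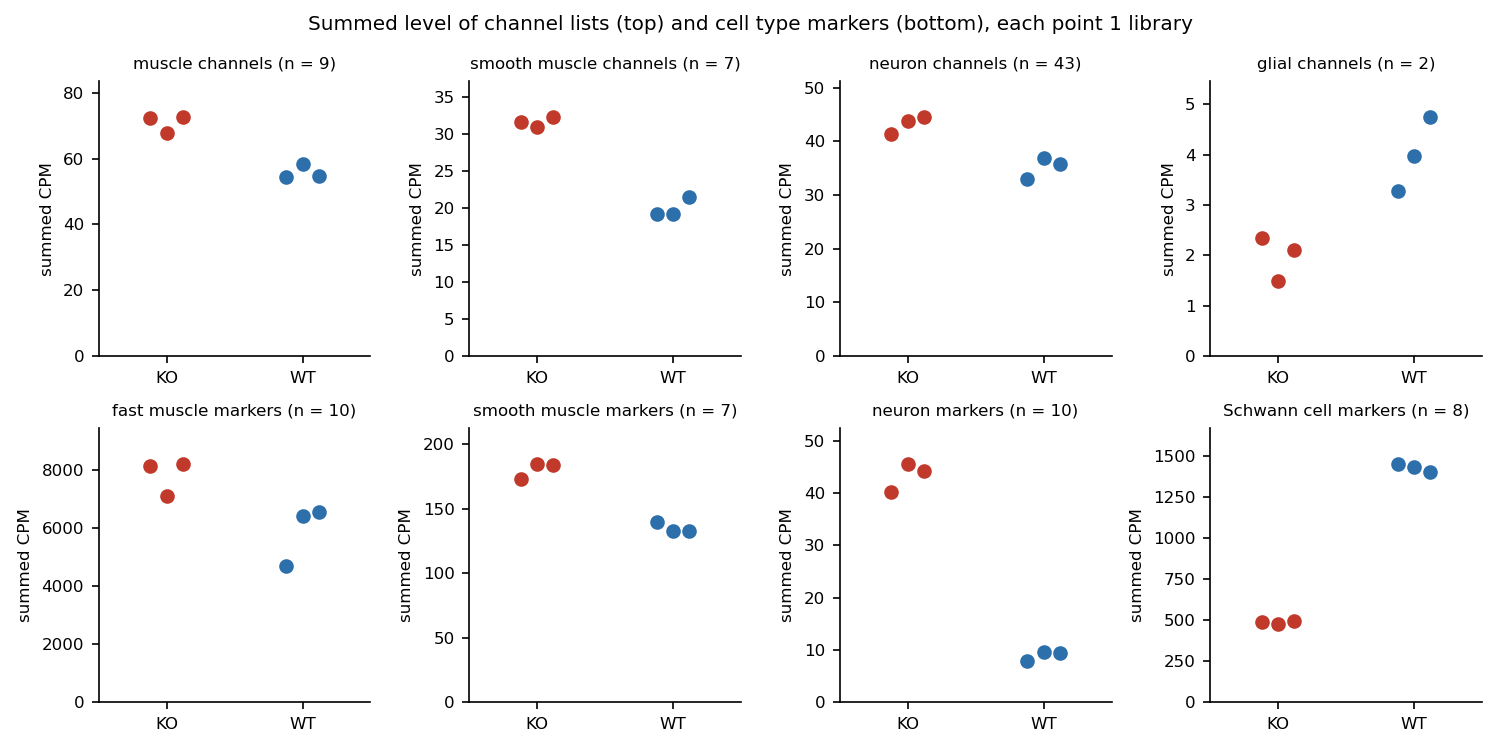
Summed CPM per library (y axis, from 0) of 4 channel lists in the upper row and of markers of the matching cell types in the lower row, KO left and WT right, each point 1 library. Neuron markers reach 45.6 CPM in KO against at most 9.71 CPM in WT, while the neuron channel list reaches 44.5 CPM in KO against at most 36.9 CPM in WT.

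Epithelial channel genes had 1 of 6 tested members lower and none higher (edgeR; 3 lower and 0 higher at an unadjusted p under 0.05, DESeq2 0), with a median log2 fold change of -0.46. Kcnj15, an inward rectifier of kidney and secretory epithelia, had 1.07, 1.1 and 1.16 CPM in KO 1 to 3 and 2.12, 1.72 and 2.02 CPM in WT 1 to 3. It was lower by -0.85 on the log2 scale (edgeR FDR 0.0257). That call was lost without KO 2 (0.149), WT 1 (0.091) or WT 3 (0.0583) and in DESeq2 (0.141). Kcnk1, a leak channel of the K2P family and the most abundant of the list per length, had 4.22 ± 0.263 CPM in KO and 5.66 ± 0.263 CPM in WT. It missed the threshold (-0.43, edgeR FDR 0.069), over a range of 0.0149 to 0.301 in all settings. Kcnk1 passed only with 6 separate libraries (FDR 0.0149, and 0.0253 with the replicate number as a block). Those settings count the summed pairs as independent samples, so their FDR may be too low. In the same libraries all 6 salivary gland markers in the table rose, and Bpifa2, the most abundant in CPM, had 266 ± 4.61 CPM in KO and 21.2 ± 0.226 CPM in WT. The 6 markers summed to 413 to 432 CPM in KO and 23.6 to 27.3 CPM in WT. The epithelial channels summed to 6.01 to 7.24 CPM in KO and 8.97 to 9.67 CPM in WT. The part of gland tissue in these values was not tested.

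Among members outside the tissue lists, 2 were higher and 3 lower of 22 tested, or 9.09% and 13.6%. Over all tested genes the shares were 9.15% and 8.48%, so the share higher was that of all genes. The higher ones were Cacna1h and Cacna1g, which encode T-type calcium channels that open near the resting potential. The third T-type gene, Cacna1i of the neuron list, was too low to test, with 2, 4 and 4 counts in KO 1 to 3, against 0 in each WT library. Cacna1h had 2.55, 4.14 and 3.53 CPM in KO 1 to 3 and 1.95, 2.21 and 1.83 CPM in WT 1 to 3 (log2 fold change 0.84, edgeR FDR 0.0128), with an FDR of 0.000562 to 0.192 over 13 other settings, the highest without KO 2. Its gene model overlaps that of the mast cell tryptase gene Tpsg1 in RefSeq, so reads of the pair may be shared. Cacna1g had 2.90, 4.12 and 3.58 CPM in KO 1 to 3 and 2.33, 2.87 and 1.71 CPM in WT 1 to 3, so that KO 1 was close to WT 2. Its change of 0.67 (edgeR FDR 0.0279) was lost without KO 2, KO 3 or WT 3 (FDR 0.287, 0.0594 and 0.13) and in DESeq2 (0.124).

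The 3 lower genes outside the lists were Cacnb3, Kcnh6 and Kcns3. Cacnb3, a beta subunit of N-type and L-type calcium channels, was the most abundant of these members per length, with 1.51 CPM per kilobase in KO and 2.23 in WT. It had 3.79, 4.45 and 3.86 CPM in KO 1 to 3 and 6.36, 5.52 and 6.10 CPM in WT 1 to 3. Its log2 fold change was -0.56 (edgeR FDR 0.0233), lost without KO 2 (0.0871), WT 1 (0.0722) and in DESeq2 (0.118). It thus fell in libraries in which Cacna1b, with which it assembles in neurons, rose. Kcnh6, a channel of the ERG family, had 0.535, 0.452 and 0.567 CPM in KO 1 to 3 and 1.06, 1.37 and 1.59 CPM in WT 1 to 3 (-1.34, edgeR FDR 0.0143), lost without KO 2 (0.113) and in DESeq2 (0.057). Kcns3, a silent subunit that modifies other voltage-gated potassium channels, had 0.382, 0.214 and 0.206 CPM in KO 1 to 3 and 0.890, 0.530 and 0.893 CPM in WT 1 to 3 (-1.60, edgeR FDR 0.0208), a call missed without KO 2 (0.148), WT 1 (0.0717) or WT 3 (0.0643) and in DESeq2 (0.0754).

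By structural family, the calcium channel alpha1 genes had 3 of 6 tested members higher and the sodium channel alpha genes 3 of 7 higher and 1 lower. The voltage-gated potassium genes had 5 of 22 higher and 3 lower (22.7% and 13.6%), and the inward rectifiers 1 of 8 lower (12.5%). Over all tested genes 9.15% were higher and 8.48% lower, and the families are small. No K2P leak channel of 6 tested was called (edgeR; 1 higher and 2 lower at an unadjusted p under 0.05, DESeq2 0). Kcna5, Kcnk1, Cacnb1 and Cacnb3 were among the genes of highest level per length in the mean of both groups. Kcnk1 (1.89 CPM per kilobase in KO, 2.53 in WT) and Cacnb1 (2.07 in KO, 2.12 in WT) changed places between the groups.

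**Figure D4:**
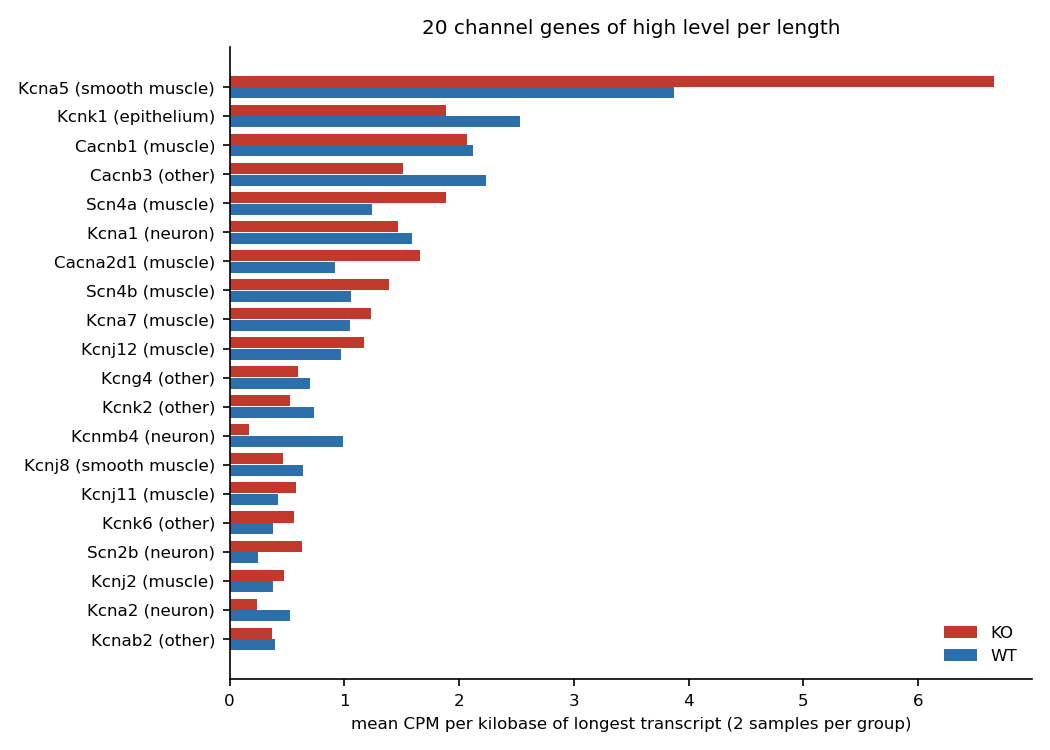
Mean CPM per kilobase of the longest transcript (x axis, from 0) in KO and WT for 20 channel genes of high level over both groups, with the tissue list in brackets. Kcna5 stands at 6.66 in KO and 3.87 in WT, above the others drawn.

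Genes that cluster or assist these channels also split by direction. There were 27 such genes with counts and 23 were tested, with 4 higher and 3 lower in KO and a median log2 fold change of -0.04. That is 17.4% and 13%, beside 9.15% and 8.48% of all tested genes. Cacng1, the gamma subunit of the skeletal muscle calcium channel, rose by 0.67 (edgeR FDR 0.0027). The neuronal cell adhesion gene Cntn1 had 117 counts over KO against 13 over WT and rose by 2.54 (FDR 0.00152). Abcc8, a sulfonylurea receptor that pairs with Kcnj11, had 53 counts over KO against 2 over WT and rose by 3.96 (FDR 0.00491), while Dpp6, a partner of transient potassium channels, rose by 1.87 (FDR 0.0135). Nfasc, whose protein anchors sodium channels at nodes and joins axon to Schwann cell beside them, had 3.96 ± 0.023 CPM in KO and 9.96 ± 2.13 CPM in WT, and was lower (log2 fold change -1.32, SE 0.16, FDR 7.78e-05). Lgi4, a factor secreted by Schwann cells for myelination, fell by 1.09 (FDR 0.000346). The initial-segment organiser Ank3 had 12.5 ± 0.488 CPM in KO and 14.4 ± 1.07 CPM in WT and was not called (FDR 0.268). Of the 6 sodium pump genes, which restore the gradients these channels use, Atp1b1 rose by 0.57 (edgeR FDR 0.00986) and Atp1b2 by 0.40 (FDR 0.0498). DESeq2 called 1 of the 6 higher. None was lower (edgeR; 0 at an unadjusted p under 0.05, DESeq2 0).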

How the data were processed

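The submitters' processing notes name HISAT2 2.1.0 and StringTie 2.1.5, with mm39 as the build, but not what each did. The annotation, the use of strand and the handling of shared reads are not stated there. Raw counts per gene symbol, 1 column for each library, are what the authors deposited. Of the 24 called channel genes, 14 have a gene model that overlaps another in RefSeq, 1 of them a protein-coding one, so their reads may be shared. Groups and replicate numbers come from the titles. Library pairs with a median variance ratio under 1.1 (nuclear genes of at least 20 summed counts, 2 counts per read pair) were summed. The whole table was fitted with edgeR 4.0.16 in R 4.3.3 (filterByExpr with a minimum count of 10, TMM, robust quasi-likelihood test, Benjamini-Hochberg FDR under 0.05), after the script had been tested on simulated data. Per-library CPM uses the TMM factor of the library's sample. SE is the absolute log2 fold change over the square root of F. Lengths are the longest GENCODE M21 transcript. The 95% intervals use this SE, and the floor of 3 counts covers counting error only. The members and lists were chosen with earlier results of these data known. Named genes are, in each tissue list, the up to 10 called members of smallest p, the most abundant per length, and those at 0 in 1 group with at least 20 counts in the other. They also include up to 6 called partner genes per list, the most abundant marker of each list and Igf2bp2. Others were added for their role in a channel complex or after their values were seen. Some genes that this rule names are not reported here, though the counts include them.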

Additional observations from a re-analysis of the deposited data

How the results depend on the processing

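The 24 calls kept their direction in all alternatives that tested them. The alternatives were DESeq2 size factors, nuclear genes only, no filter, a minimum of 50 counts in each of 3 libraries, DESeq2 1.42.0 in place of edgeR, 6 separate libraries, the replicate number as a block, and leaving out each library. No scaling moved the median of all genes by more than 0.01. Over all genes the count of 2580 was 1634 in DESeq2 and 1149 to 2434 without 1 library, lowest without KO 2. The 16 higher channel genes numbered 8 to 16 without 1 library and the 8 lower ones 2 to 8, both lowest without KO 2, with 4 lower without WT 1 and 5 without WT 3. Lower ones numbered 3 with the stricter filter, which left 29 members tested, and 3 in DESeq2. Of the 24 calls, 22, 20, 23 and 18 were kept without KO 1, KO 3, WT 2 and WT 3, which each left n = 2. Leaving out KO 2 or WT 1 left 1 sample in a group, so those settings are not like the others. Counts by tissue list were added after the data were seen. Neuron genes numbered 5 higher and 1 lower with the stricter filter, and 5 to 10 higher without 1 library; the 2 muscle genes were 1 to 2. With 6 separate libraries 18 channel genes were higher and 10 lower, and with the replicate block 17 and 9. Both settings count library pairs near counting noise as independent samples, so their FDR values may be too low. Same-numbered libraries had correlations of -0.03, -0.09 and 0.03, and differently numbered ones -0.08 to 0.11, the highest for KO 2 with WT 1. Each group holds a pair of libraries near counting noise, so these values cannot decide whether the numbers pair the samples. The replicate block gave 2941 genes.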
